A study of Mus musculus with 39 samples.

Results

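The subunits of the mitochondrial oxidative phosphorylation system were taken by gene symbol: nuclear protein-coding genes starting with Nduf, Uqcr, Cox4, Cox5, Cox6, Cox7, Cox8 or Atp5, together with Sdha to Sdhd and Cyc1. This gave 94 nuclear genes of the 53379 genes in the tables, and 85 of them had a mean count of 10 or more over the libraries used, against 11472 genes in all. The 13 protein-coding genes of the mitochondrial genome (prefix mt-) were described apart, and 7 of them reached that mean count. By complex, the nuclear list held 36 genes of complex I, 8 Ndufaf genes whose products help to assemble it, 4 of complex II, 9 of complex III, 20 of complex IV, 16 of ATP synthase and Atp5s, which carries the prefix without coding for a subunit.

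RNA was sequenced from pools of 200 to 400 cells sorted from the dissected neocortex of MADM-7 embryos at embryonic day (E) 13 and E16. Libraries with the same replicate number at an age were taken as 1 embryo. This gave 6 and 7 embryos with a red, a green and a yellow library from each, 39 libraries in all. The embryos carried the MADM-7-GT and MADM-7-TG cassettes on chromosome 7 and Emx1-Cre, which drives recombination in the dorsal forebrain lineage, in a mixed C57BL/6J and CD1 background (the strain label says CD1). MADM, Mosaic Analysis with Double Markers, leaves sparse red (tdT+) and green (GFP+) cells with both copies of chromosome 7 from 1 parent, and yellow (GFP+/tdT+) cells with a copy from each. The labels give the colours and not the parent: paternal disomy was taken as red in replicates 1 to 3 and green from replicate 4 on, as this comparison was set, with the other single colour as maternal disomy.

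Oxidative phosphorylation couples the oxidation of NADH and succinate to the synthesis of ATP. Complexes I and II pass electrons to ubiquinone, complex III passes them on to cytochrome c, complex IV reduces oxygen, and ATP synthase uses the proton gradient that complexes I, III and IV build. Most subunits are coded in the nucleus, while core membrane subunits of complexes I, III and IV and of ATP synthase are coded in the mitochondrial genome, and cortical progenitors are known to lean more on glycolysis than the neurons they give rise to.

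Libraries with under 40% uniquely aligned reads (E13 yellow 3, E13 red 5 and E13 green 5) were left out, and 36 remained, with 472924 to 5205788 counts in genes. A further 7 kept libraries stood apart by having fewer than 10000 detected genes or at least 50 counts of both Xist and Y-linked genes: E13 green 4, E13 yellow 2, E16 green 7, E16 red 5, E16 red 6, E16 yellow 5 and E16 yellow 7. Results that changed without them are given both ways. Nuclear members held 1.44 to 5.66% of the counts in genes and the mt- genes 1.21 to 6.86%. Markers of projection neurons were present in every library, with Tubb3, a neuronal tubulin, at 945 CPM or more. CPM are counts relative to the TMM-scaled library size. Of the radial glia genes, Pax6 and Fabp7 were also present in every library, whereas Hes5 and Hopx were at 0 in 26 and 34 libraries. Of the microglial genes, P2ry12 was at 0 in all 36. Aif1, Cx3cr1 and Csf1r were at 0 in 29, 33 and 31 libraries and reached 48.8, 30.3 and 22.9 CPM. In such bulk samples fewer cells of a type and less RNA per cell cannot be told apart.

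Of the mitochondrial genome, 6 genes had almost no deposited counts, and 5 of those have a near-identical annotated copy on chromosome 1. The authors kept only reads with a single alignment. The opening 90 bases of mt-Atp6, which codes for a membrane subunit of ATP synthase, and of mt-Nd3, a core subunit of complex I, are shown beside those of their copies because a read from either gene can hardly be placed. Letters are lower case where gene and copy are the same, and capitals mark a base that differs.
mt-Atp6: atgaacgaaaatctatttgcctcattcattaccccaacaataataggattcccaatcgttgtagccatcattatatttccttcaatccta
Gm10925: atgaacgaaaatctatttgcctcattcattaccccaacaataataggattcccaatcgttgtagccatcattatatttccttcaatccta
mt-Nd3: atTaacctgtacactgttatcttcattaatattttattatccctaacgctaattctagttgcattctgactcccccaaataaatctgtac
Gm28438: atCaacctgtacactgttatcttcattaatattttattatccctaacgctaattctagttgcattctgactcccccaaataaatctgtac

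Over its whole length of 678 bases Gm10925 was identical to mt-Atp6. Gm28438 matched mt-Nd3 at 344 of 345 bases, with the substitution T3C counted from 1 at the start of the mt-Nd3 transcript. The copies of mt-Co2 (Gm28661, 681 bases), mt-Co3 (Gm28437, 783 bases) and mt-Nd4l (Gm10222, 294 bases) were identical to those genes throughout. All of these copies lie between the copy of mt-Nd4 at its start (Gm28439, chr1:24611535-24612410) and the copy of the end of mt-Co1 (Gm29216, chr1:24615706-24616197), in GRCm38.

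Mean counts per library were 3 for mt-Atp6, 0.583 for mt-Co2, 8.19 for mt-Co3, 0.167 for mt-Nd3 and 0 for mt-Nd4l. The copies had mean counts of 4.19, 1.42, 16.4, 56.8 and 0.0278 in the same order. By contrast mt-Co1, whose copy covers 492 of its 1545 bases with 486 identical and which shares 27.5% of its 50-base stretches with a further copy on chromosome 2 (Gm13340), had a mean count of 24999.8, and mt-Nd4, shared over 876 of 1378 bases, one of 11058. The share of 50-base stretches also found in another annotated gene ran from 98.0 to 100% for mt-Nd3, mt-Nd4l, mt-Atp6, mt-Co3 and mt-Co2, was 62.2% for mt-Nd4 and 51.1% for mt-Co1, and was 0% for mt-Atp8. The gene mt-Atp8 (chromosome M, 7766 to 7969), which codes for a small ATP synthase subunit, also had few counts, with a mean level of 0.418 CPM. It has no annotated copy of its own, overlaps mt-Atp6 by 43 bases and fills most of the stretch between mt-Co2 and mt-Atp6, which is 233 bases long on chromosome M and also between their copies on chromosome 1. The level of the 5 genes with a near-identical copy cannot be read from uniquely aligned reads, and for mt-Atp8 the part of the chromosome 1 stretch was not tested. No statement below rests on these 6 genes, although they stay in the summed level and mt-Co3 passed the count filter where counts were summed per embryo. For mt-Atp6 the deposited level was 0.147 to 1.83 CPM over E13 and 0.442 to 2.32 CPM over E16 embryos, too low to test.

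**Figure D1:**
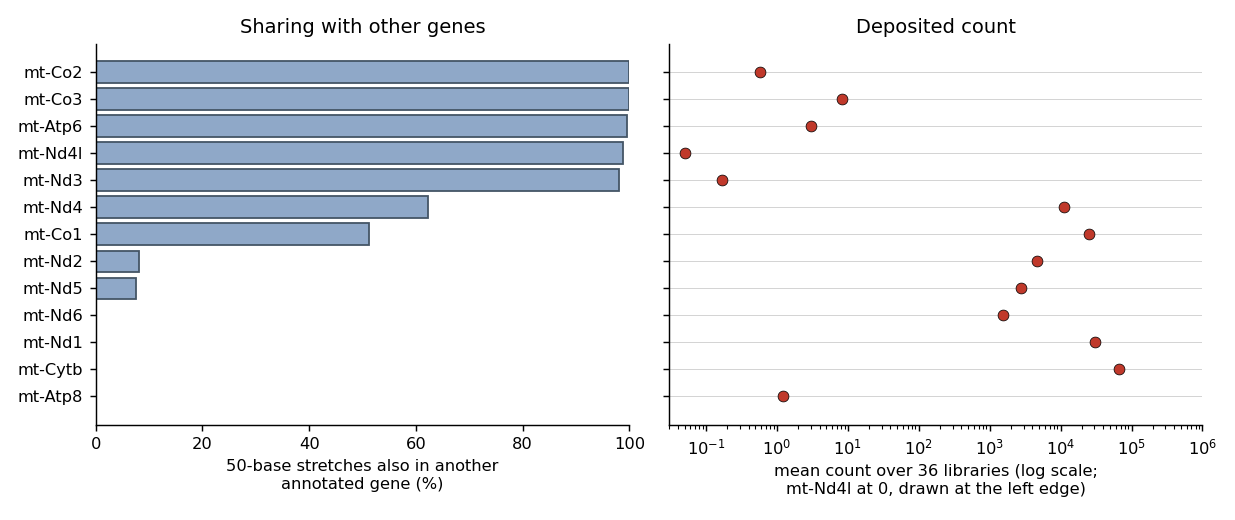
Left, the share (%) of 50-base stretches of each mt- gene that also occur in another annotated gene; right, its mean deposited count over 36 libraries on a log scale. The 5 genes with shares of 98.0% or more have mean counts of 8.19 or less, and mt-Atp8 has few counts at a share of 0%.

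Among nuclear members, the level per kb of exon union (mean CPM over 36 libraries per kb of all annotated exons) was highest for Cox4i1, the widespread form of complex IV subunit 4, at 2721 CPM per kb. In complex I it ran from 1446 for Ndufa2, an accessory subunit, to 6.18 for Ndufab1, the mitochondrial acyl carrier protein. In complex II it ran from 279 for Sdhb, the iron-sulphur subunit, to 2.83 for Sdhc, a membrane anchor. Complex III spanned 1203 for Uqcr10 to 40.6 for Uqcrc1, a core protein, and ATP synthase 862 for Atp5o, a stalk subunit, to 0.62 for Atp5g2. For 32 of the 94 genes the exon union was more than 2 times as long as the principal transcript, which lowers a level per kb.

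Where a subunit has alternative forms, their levels were unequal. Cox6a1 stood at 1208 CPM per kb and Cox6a2, the heart and muscle form, at 0.96. Cox6b1 stood at 1238 and Cox6b2, the testis form, at 2.28, while Cox8a had 691, Cox8c 2.90 and Cox8b 0. Cox7a2 had 781, its relative Cox7a2l 149 and the muscle form Cox7a1 1.97. No library had a count of Cox4i2, Cox8b or Ndufa4l2, whereas Ndufa4 had 542 CPM per kb. Of the genes for the c subunit of the ATP synthase ring, Atp5g3 was highest (136 CPM per kb), ahead of Atp5g1 (7.99) and Atp5g2 (0.62), and Atp5g2 shared 38.35% of its 50-base stretches with other genes. Of the mt- genes that can be read, mt-Cytb, the cytochrome b of complex III, was highest at 19063 CPM per kb. It was followed by mt-Nd1 at 10321, mt-Co1, the catalytic subunit of complex IV, at 5269 and mt-Nd4 at 2558. These levels are per kb of the whole gene. Of the 50-base stretches, 51.1% of mt-Co1 and 62.2% of mt-Nd4 are shared with other genes, against 0% of mt-Cytb and mt-Nd1. The levels of mt-Co1 and mt-Nd4 may therefore be too low, and the order is one of deposited counts only.

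Summed over the nuclear members, libraries ran from 12660 CPM (E16 yellow 7) to 72689 CPM (E16 red 5). Group means were 37005 ± 3335 (SD, n = 5) in E13 red, 37966 ± 3735 (SD, n = 5) in E13 green and 42394 ± 13161 (SD, n = 5) in E13 yellow cells. At E16 they were 50293 ± 13490 (SD, n = 7) in red, 39555 ± 9184 (SD, n = 7) in green and 39614 ± 13397 (SD, n = 7) in yellow cells. The ranges of all groups overlapped, and the singly coloured libraries of E13 lay closest together. The lowest libraries, E16 yellow 7 and E13 yellow 2 (19974 CPM), also had the highest shares of reads without a gene feature, 44.1 and 40.9%, and few genes detected, 7858 and 9655. The part of these features in the sums was not tested.

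**Figure D2:**
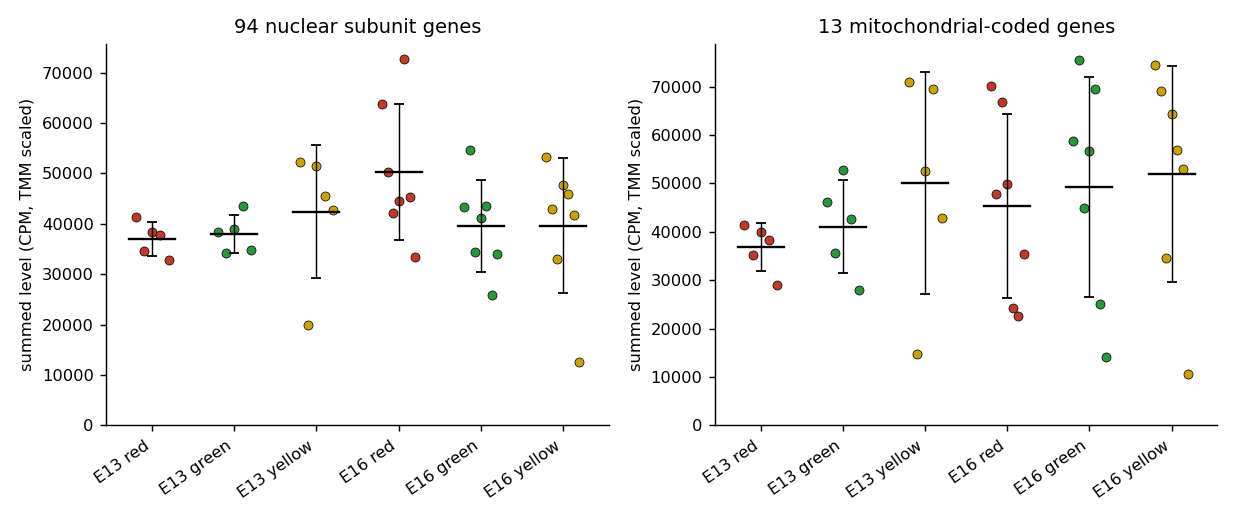
Summed level (CPM, TMM scaled) of the 94 nuclear genes (left) and the 13 mt- genes (right) in each of the 36 libraries, by age and colour; bars are the mean and error bars the SD. E13 yellow 2 and E16 yellow 7 lie lowest of their groups in both panels, and E16 red 5 is highest in the left panel at 72689 CPM.

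To compare the ages, counts of the libraries of an embryo were summed so that the embryo was the replicate, and genes with a mean count of 10 or more in the comparison were tested. With all colours together, 88 nuclear members could be tested between 7 E16 and 6 E13 embryos and 1 of them, Cox6b2, stood past the threshold as lower at E16, with none higher. Since Cox6b2 entered the comparison only through its E13 counts, its call is a description and not a test. Of 13776 genes, 3.8% were called, 1.92% higher and 1.88% lower. At an unadjusted p under 0.05 stood 4 members upward and 4 downward, against 19.3% of all genes. Among the 8 mt- genes tested, mt-Co3 included, mt-Nd6 alone was called, and it was lower. The fitted log2 change was positive for 74 of the 88 nuclear members (84.1%), against 51.5% of all genes, with a median of 0.24 against 0.03. For complex I this was 35 of 36 genes, with a median of 0.27. With the libraries that stood apart left out, 58 of 88 were positive, with a median of 0.11 against -0.07, and no nuclear member was called (6.16% of all genes).

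The mt-Nd6 gene (chromosome M, 13552 to 14070) codes for a membrane subunit of complex I and is the only one of the 13 on the minus strand. Its level was 649, 452, 608, 723, 799 and 519 CPM in E13 embryos 1 to 6 and 432, 352, 360, 387, 413, 341 and 319 CPM in E16 embryos 1 to 7. Every E16 embryo lay below every E13 embryo. The log2 change was -0.75 (SE 0.16, adjusted p = 0.0170, edgeR quasi-likelihood test), and the change in yellow cells alone was -0.82 (SE 0.26, edgeR adjusted p = 0.300) and in singly coloured cells -0.71 (SE 0.23, edgeR adjusted p = 0.101). In yellow cells alone the ages did not overlap, with 512 to 824 CPM at E13 and 289 to 482 CPM at E16, whereas in singly coloured cells they did, with 411 to 712 CPM and 179 to 430 CPM. Without the libraries that stood apart, mt-Nd6 was also called in yellow cells, at -0.96 (edgeR adjusted p = 0.0467, with 1.35% of all genes called). In the fit over embryos with all 3 colours it was not called (-0.66, edgeR adjusted p = 0.0689). Counts were taken without strand, so RNA of the opposite strand across mt-Nd6 cannot be told from its own.

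Its neighbour mt-Nd5, another membrane subunit of complex I, ran from 676 to 1306 CPM at E13 and 451 to 906 CPM at E16, with a log2 change of -0.52 (SE 0.19, edgeR adjusted p = 0.127). The other mt- genes that can be read, mt-Nd2 and mt-Nd4 among them, overlapped between the ages. For mt-Cytb the change was 0.33 (SE 0.32), for mt-Nd1 0.00 (SE 0.27) and for mt-Co1 -0.15 (SE 0.24), with edgeR adjusted p of 0.638, 0.997 and 0.789.

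Core nuclear subunits showed the spread behind these comparisons. Ndufv1, the NADH-binding subunit of complex I, had 205 to 365 CPM (median 279) at E13 and 215 to 436 CPM (median 318) at E16, a log2 change of 0.15 (SE 0.21, edgeR adjusted p = 0.755). Ndufs1, the largest iron-sulphur subunit of complex I, had 47.2 to 122 CPM and 46.2 to 282 CPM, a change of 0.43 (SE 0.40). The high E16 value was that of embryo 5, without which the change of Ndufs1 was -0.02. Sdha, the succinate-oxidising flavoprotein of complex II, changed by 0.36 (SE 0.34), Uqcrfs1, the Rieske iron-sulphur protein of complex III, by -0.29 (SE 0.24) and Cox4i1 by 0.17 (SE 0.23). For each of these the embryos of the ages overlapped, and edgeR adjusted p ran from 0.555 to 0.755.

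The ages were then compared in singly coloured cells. Between 7 E16 and 5 E13 embryos, red and green libraries summed, 4 of 88 nuclear members were called higher at E16 and 3 lower, and 3.24% of 12797 genes were called, 1.67% higher and 1.56% lower. The 4 were Ndufc1, Ndufa6 and Ndufv2 of complex I and Ndufa4 of complex IV, and the 3 were Atp5b and Atp5a1 of ATP synthase and Cox6b2, the last again admitted through its E13 counts only. Before adjustment, 28 members had a p under 0.05 upward and 4 downward, against 10.2% and 9.56% of all genes (19.7% together). The log2 change was positive for 78 of 88 members (88.6%), against 52.5% of all genes, and the median was 0.45 against 0.06. Without the libraries that stood apart, Atp5b alone was called (background 5.03%), with 65 of 87 positive and a median of 0.29 against -0.06.

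The pair of ATP synthase subunits that fell form the catalytic head of the enzyme: Atp5b codes for the catalytic beta subunit and Atp5a1 for the alpha subunit. Atp5b stood at 3521, 3120, 2993, 2930 and 3303 CPM in E13 embryos 1, 2, 3, 4 and 6 and at 1840, 2159, 1296, 1449, 1794, 2140 and 2139 CPM in E16 embryos 1 to 7. All E13 embryos lay above all E16 embryos. The log2 change was -0.79 (SE 0.16, edgeR adjusted p = 0.0118), and it was -0.80 (edgeR adjusted p = 0.00759) without the libraries that stood apart.

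Atp5a1 stood at 1730, 1781, 1530, 1520 and 2078 CPM at E13 and 967, 987, 846, 826, 852, 1078 and 1403 CPM at E16, again without overlap. Its log2 change was -0.80 (SE 0.17, edgeR adjusted p = 0.0188). It passed the threshold neither without the libraries that stood apart (-0.69, adjusted p = 0.0804) nor without E13 embryo 6 (-0.72, adjusted p = 0.0576). Most other genes of the enzyme did not follow. Of 15 ATP synthase genes tested, Atp5b and Atp5a1 included, 11 had a positive change and 4 a negative one, with a median of 0.45. Among the positive ones were Atp5g1 (1.18), a ring subunit, and Atp5k (0.74), neither of which was called. With all colours together Atp5b changed by -0.55 (SE 0.17, edgeR adjusted p = 0.0813), and by -0.67 (adjusted p = 0.00844) when E13 embryo 5, of which only the yellow library was kept, was left out.

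For the members called higher and for Atp5b, 300 bases around the start of the gene are shown (250 before and 50 from the start, RefSeq, GRCm38.p6) where they hold a match to a motif of NRF1 or YY1, factors known for regulating nuclear genes of the respiratory chain. Capitals mark the match.
Ndufc1 (chr3:51408906-51409205, minus strand): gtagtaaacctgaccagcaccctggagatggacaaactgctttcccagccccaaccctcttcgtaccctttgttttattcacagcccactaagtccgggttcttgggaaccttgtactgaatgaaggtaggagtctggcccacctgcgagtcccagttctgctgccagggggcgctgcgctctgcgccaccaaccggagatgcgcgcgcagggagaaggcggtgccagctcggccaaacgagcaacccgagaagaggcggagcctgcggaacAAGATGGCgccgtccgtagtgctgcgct
Ndufa6 (chr15:82354242-82354541, minus strand): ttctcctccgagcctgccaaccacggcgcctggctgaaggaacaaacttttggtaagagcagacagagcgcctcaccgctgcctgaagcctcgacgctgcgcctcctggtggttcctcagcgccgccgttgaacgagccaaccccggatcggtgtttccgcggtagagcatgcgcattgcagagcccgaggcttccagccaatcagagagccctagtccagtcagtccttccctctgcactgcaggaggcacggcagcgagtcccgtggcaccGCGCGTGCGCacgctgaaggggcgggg
Atp5b (chr10:128083057-128083356, plus strand): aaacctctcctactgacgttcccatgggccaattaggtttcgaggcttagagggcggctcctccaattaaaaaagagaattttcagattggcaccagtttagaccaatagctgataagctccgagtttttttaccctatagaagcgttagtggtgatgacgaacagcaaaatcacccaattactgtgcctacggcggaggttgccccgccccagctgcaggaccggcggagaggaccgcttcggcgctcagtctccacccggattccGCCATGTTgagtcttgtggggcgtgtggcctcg

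The YY1 motif was searched as AANATGGC, the NRF1 motif as GCGCA, any base (N) and GCGC, and an ETS motif as CCGGAAG, each on both strands. The matches began 23 bases into Ndufc1, 24 into Ndufa6 and 18 into Atp5b, those of Ndufa6 and Atp5b on the opposite strand of the motif as written. Ndufc1, which rose, and Atp5b, which fell, each held a YY1 match, and the windows of Ndufa4 and Ndufv2 held none of these letters. The part of the motifs in the changes was not tested. Of the 74 nuclear members with a window, 19 held the NRF1 motif (25.7%, against 5.19% of 27025 genes), 18 the ETS motif (24.3% against 9.93%) and 18 the YY1 motif (24.3% against 6.96%). None of the motifs was found in 27 members (36.5%, against 80.6% of genes). Atp5a1 and 19 other members, among them Cox4i1, Cyc1 and Ndufs1, had no window in the table.

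Ndufc1, a small membrane subunit of complex I, stood at 673, 484, 580, 490 and 396 CPM in the E13 embryos and at 1270, 939, 757, 913, 1628, 749 and 804 CPM at E16. The lowest E16 embryo lay above the highest at E13. The log2 change was 0.94 (SE 0.23, edgeR adjusted p = 0.0391), and without the libraries that stood apart it was 0.63 (adjusted p = 0.205).

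Ndufv2, a core subunit that carries an iron-sulphur cluster, stood at 972, 725, 835, 801 and 684 CPM at E13 and 1487, 1433, 1057, 1442, 1101, 1084 and 1259 CPM at E16, with no overlap and a log2 change of 0.66 (SE 0.17, edgeR adjusted p = 0.0428). Ndufa6, an accessory subunit, stood at 474, 273, 325, 325 and 231 CPM and 849, 625, 399, 655, 667, 465 and 625 CPM. Here E13 embryo 1 lay within the E16 range, and the change was 0.91 (SE 0.24, edgeR adjusted p = 0.0474). All 36 complex I genes had a positive change in singly coloured cells, from 0.02 to 1.07 with a median of 0.43. The 10 further members with an unadjusted p under 0.05 but not called included Ndufb2 (1.07, SE 0.31) and Ndufs8 (0.71, SE 0.28).

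Ndufa4, now counted as a subunit of complex IV, stood at 477, 424, 579, 520 and 419 CPM at E13 and 1157, 1115, 744, 959, 808, 737 and 675 CPM at E16. The ages did not overlap, and the change was 0.87 (SE 0.19, edgeR adjusted p = 0.0244). The calls of these 4 genes depended on the embryos included: leaving out 1 embryo at a time, Ndufc1 lost its call in 8 of 12 fits, Ndufv2 in 8, Ndufa6 in 9 and Ndufa4 in 4. Ndufa6 lost its call also with DESeq2 size factors (adjusted p = 0.0506), and Ndufa6 and Ndufv2 without the count filter. Without the libraries that stood apart the changes of Ndufa4, Ndufv2 and Ndufa6 were 0.76, 0.60 and 0.71, with adjusted p of 0.128, 0.103 and 0.203. Of the other complex IV genes, Cox6c (0.83, SE 0.23), Cox7a2 (0.79, SE 0.25) and Cox5b (0.76, SE 0.20) came nearest to the threshold, with edgeR adjusted p of 0.0628, 0.0904 and 0.0527. In complex III the nearest was Uqcrq (0.65, SE 0.18, edgeR adjusted p = 0.0626), and in complex II Sdhb (0.51, SE 0.21, edgeR adjusted p = 0.187).

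Cox6b2 was near the floor. Its level over all colours was 12.0, 0, 13.9, 6.82, 0 and 0 CPM in E13 embryos 1 to 6, and of the E16 embryos only embryo 2 was above 0, with 1 count. Over all libraries this was 265 counts at E13, in 5 of 15 libraries, against 1 count at E16, in 1 of 21 libraries. The ratio of the pooled levels was 317, with a 95% interval of 56.5 to 12578 that covers counting error only, and the ages overlapped at 0. Cox8c, another low member, had 196 counts in a single E13 library and none at E16. Set against 3 counts over the E16 group, its level was 78.2-fold higher at E13. The 95% lower limit of the ratio, for counting error only, was 63.0. Both genes passed the filter through their E13 counts alone. Cox6a2 had 50 counts, also in 1 E13 library, and none at E16. Cox7a1 ran the other way, with 20 counts in 3 of 15 libraries at E13 and 117 counts in 8 of 21 libraries at E16. The ratio was 0.205 (95% interval 0.121 to 0.331, counting error only). A single library held 64 of its counts. Over all colours the embryos overlapped, with 0 to 0.81 CPM at E13 and 0 to 5.81 CPM at E16. Cox7a1 reached the filter mostly through its E16 counts, so these values are a description and not a test.

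**Figure D3:**
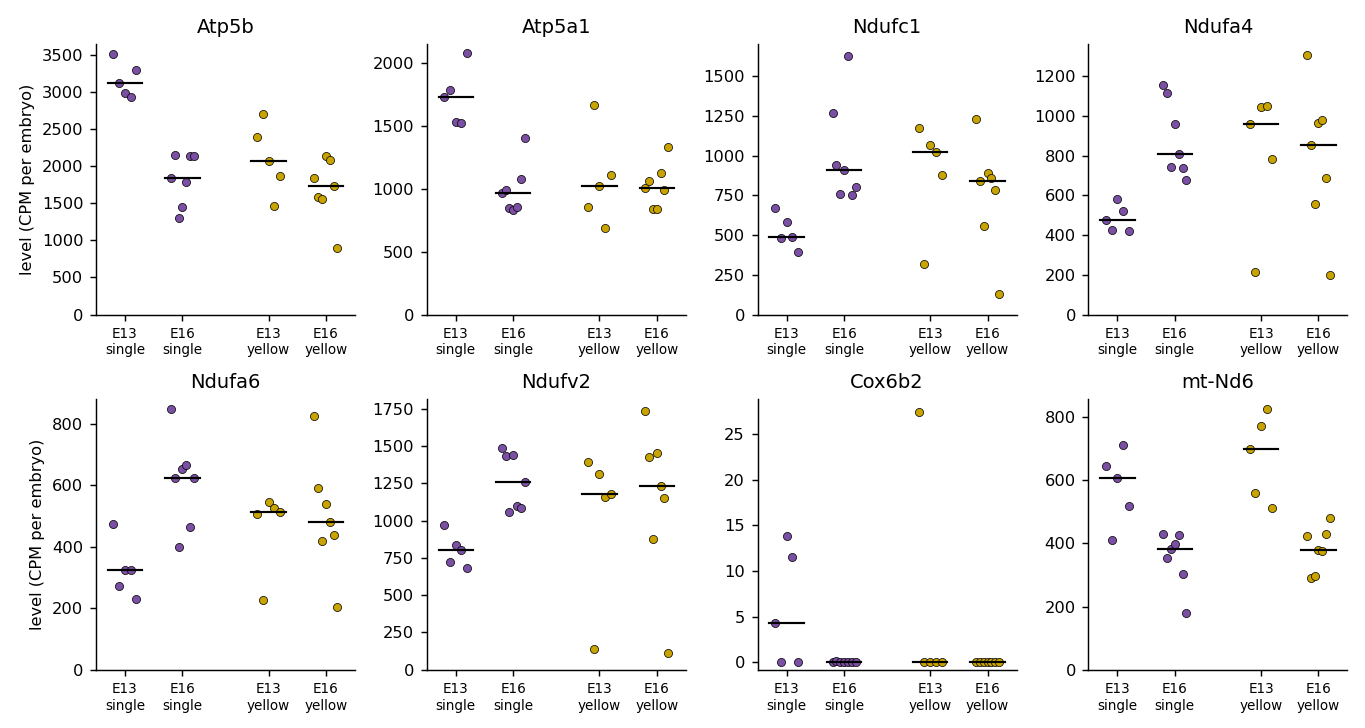
Level per embryo (CPM, TMM scaled) at E13 and E16 of the 8 members called in a comparison of the ages, in singly coloured (red and green summed, purple) and yellow cells; bars are medians. In singly coloured cells the ages do not overlap for Atp5b, Atp5a1, Ndufc1, Ndufa4 and Ndufv2, and in yellow cells the same genes overlap, with E13 yellow 2 and E16 yellow 7 lowest for Ndufc1, Ndufa4, Ndufa6 and Ndufv2.

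In yellow cells no nuclear member and no mt- gene was called between the ages (edgeR, 7 against 5 libraries), and 0.149% of 11378 genes were. At an unadjusted p under 0.05 there was no nuclear member and 1 mt- gene, against 8.69% of all genes, and by the DESeq2 Wald test no member was called either. The log2 change was positive for 24 of 85 nuclear members (28.2%), against 47.0% of all genes, and the median was -0.09 against -0.06. The median was -0.30 without E13 yellow 2, 0.06 without E16 yellow 7 and -0.15 without all libraries that stood apart, so its sign rests on single libraries. The members called in singly coloured cells had yellow changes of -0.31 (SE 0.25) for Atp5b, -0.06 (SE 0.26) for Atp5a1, -0.24 (SE 0.43) for Ndufc1, -0.03 (SE 0.43) for Ndufa4, 0.11 (SE 0.35) for Ndufa6 and 0.14 (SE 0.54) for Ndufv2. The difference between the colours in the change with age was tested itself, and none of 11472 genes was called (edgeR, 4.14% at an unadjusted p under 0.05). The DESeq2 Wald test called 144 genes higher and 56 lower in this contrast, and no member. Ndufc1 had a difference of 1.10 (SE 0.46, unadjusted p = 0.0239), Atp5a1 of -0.71 (SE 0.31, unadjusted p = 0.0287) and Ndufa4 of 0.77 (SE 0.43, unadjusted p = 0.0812), all with an adjusted p of 1. Leaving out the libraries that stood apart, still no member was called, and 19 nuclear members had an unadjusted p under 0.05 upward and 2 downward, against 7.17% of all genes.

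**Figure D4:**
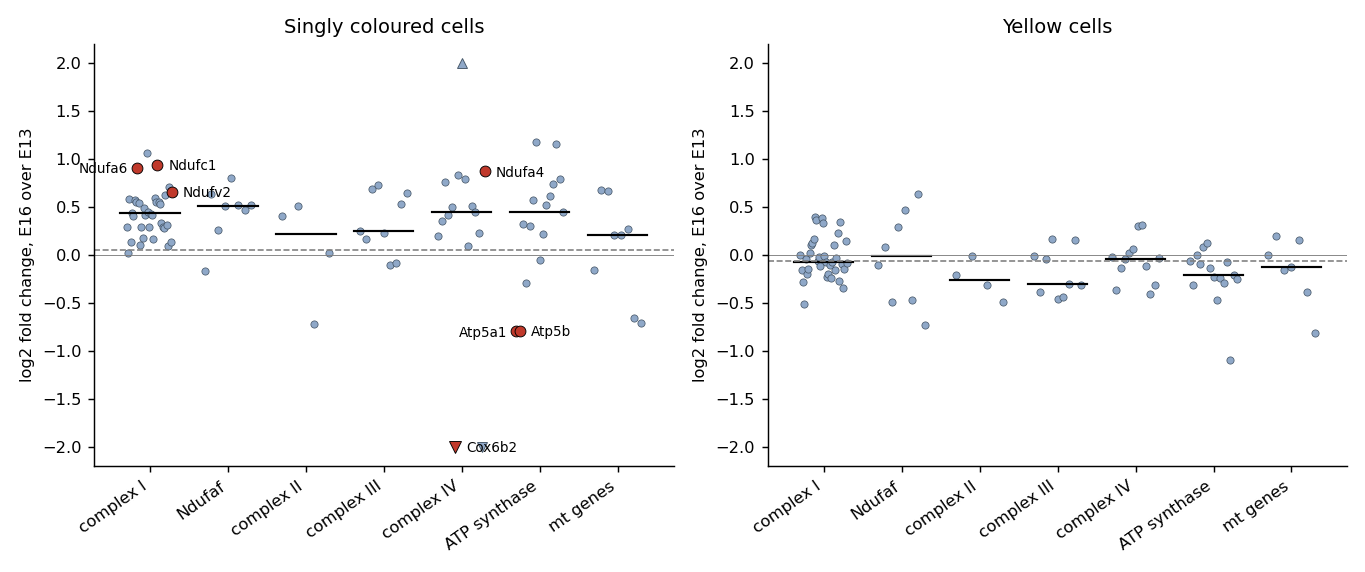
Log2 change from E13 to E16 of each gene tested, by complex, in singly coloured (left) and yellow cells (right); black bars are medians, the dashed line is the median of all genes, red points were called, triangles lie beyond the axis and Atp5s is not drawn. All 36 complex I genes lie above 0 on the left, and their median is 0.43 there and -0.07 on the right.

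Cell type markers moved with age in the same singly coloured libraries. Of 8 radial glia genes tested, 5 were lower at E16 (Hes1, Nes, Pax6, Sox2 and Vim). Another 2, Fabp7 and Slc1a3, had an unadjusted p under 0.05 upward and were not called. Of 10 projection neuron genes 6 were higher, among them Dcx, Map2, Neurod6, Stmn2 and Stmn3. A further 2 of the 10 had a negative change, 1 of them with an unadjusted p under 0.05, and were not called. With all colours together 4 of the 10 were called higher and 1 lower. The summed level of the 10 neuronal markers was 4007 to 6830 CPM in E13 and 8042 to 19412 CPM in E16 singly coloured libraries, with no overlap, and 9122 to 11677 CPM in E13 yellow libraries. The 9 radial glia markers ran from 1840 to 3200 CPM at E13 and from 830 to 3894 CPM at E16. The 4 red blood cell genes reached 52563 CPM in 1 E13 singly coloured library, with a median of 44.3 CPM at E13 and a highest value of 5796 CPM at E16. The 6 interneuron genes reached 105 CPM at E13 and 37.7 CPM at E16. The part of these cell types in the changes of the members was not tested.

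Length moved with the change as well. In singly coloured cells the median change was 0.55 for the 33 members with a principal transcript under 700 bp, 0.43 for 34 members of 700 to 1500 bp and 0.33 for 21 longer ones. Over all protein-coding genes tested the same classes had medians of 0.40, 0.16 and 0.01. In each class the median of the members lay above that of all genes of the class, which include the members themselves. The gap was smallest in the shortest class. The part of length in the result was not tested.

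Genes of neighbouring pathways are given by counts. Of all genes tested in singly coloured cells, 1.67% were called higher and 1.56% lower, with a median of 0.06. In singly coloured cells, 5 of 17 glycolysis genes were lower at E16 (Aldoc, Eno1, Gpi1, Ldha and Tpi1) and none higher, with a median of -1.09. Eno1, Ldha and Tpi1 were also lower with all colours together, where Pfkp, the platelet form of phosphofructokinase, was higher. With all colours, 1.92% of all genes were called higher and 1.88% lower. The counts that follow are again those of singly coloured cells. None of 13 tricarboxylic acid cycle genes was called, with a median of -0.12, and none of 10 regulators of mitochondrial biogenesis, with a median of -0.48. Of 34 assembly factors of the respiratory complexes, Sdhaf4 was higher, with a median of 0.54. Among 77 mitochondrial ribosomal protein genes 2 were higher (median 0.11), and none of 83 cytoplasmic ribosomal protein genes was called (median -0.02). In yellow cells no gene of these lists was called.

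Singly coloured and yellow cells were then compared within embryos. At E13 no nuclear member and no mt- gene was called (edgeR, 0.00848% of 11786 genes, and 6.86% at an unadjusted p under 0.05), and the DESeq2 Wald test called none either. Of 87 nuclear members, 2 had an unadjusted p under 0.05 upward (Atp5b, Atp5a1) and 2 downward (Ndufc1, Uqcrq), against 2.37% and 4.49% of all genes, and the median was -0.26 against -0.10 for all genes. The ratio of single to yellow summed nuclear levels was 0.762, 0.789 and 0.790 in embryos 1, 4 and 6 and 1.72 in embryo 2, whose yellow library is one of those that stood apart. For the mt- genes it was 0.618, 0.771 and 0.665 against 2.40. Embryo 2 thus went the other way from the other 3 in both sums. Cell type markers differed in this contrast too. All 7 radial glia and all 4 intermediate progenitor genes tested had a positive change, and all 10 projection neuron genes a negative one. The neuronal gene Stmn3 was the 1 gene called. The part of cell types in the differences between singly coloured and yellow cells was not tested.

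Without the libraries that stood apart, still no nuclear member was called at E13, but 35 of 87 had an unadjusted p under 0.05 downward and 3 upward, against 8.35% of all genes, and the median was -0.61 against -0.22. In that fit, in which 0.077% of all genes were called, mt-Cytb was called at a log2 change of -0.92 (edgeR adjusted p = 0.0126). With all kept libraries of E13 it was -0.43 (SE 0.32, adjusted p = 0.855), with the poorly aligned ones added 0.25 (adjusted p = 0.995), and without embryo 2 -0.91 (adjusted p = 0.00419). The single to yellow ratio of mt-Cytb was 0.498, 0.588 and 0.517 in embryos 1, 4 and 6 and 3.35 in embryo 2. The gene was thus lower in singly coloured cells of 3 of 4 embryos, and its call rests on leaving out embryo 2.

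Atp5b went the other way from most members at E13. Its single to yellow ratio ran from 1.18 in embryo 2 to 1.87 in embryo 6, above 1 in each of 4 embryos, with a log2 change of 0.58 (SE 0.15, edgeR adjusted p = 0.441). Atp5a1 changed by 0.69 (SE 0.22, edgeR adjusted p = 0.572), and Ndufc1 by -0.63 (SE 0.29, edgeR adjusted p = 0.714).

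At E16 none of 10794 genes was called between singly coloured and yellow cells (0%, edgeR, and 2.38% at an unadjusted p under 0.05). In simulated data this fit called 13% of genes changed by 2 on the log2 scale and 27% of those changed by 3, drawn from all genes tested. Among 85 nuclear members 1 had an unadjusted p under 0.05, and by the DESeq2 Wald test no member was called. The change was positive for 69 of 85 members, with a median of 0.18 against 0.00. Without the libraries that stood apart it was positive for 31 of 85, with a median of -0.04. The single to yellow ratio of the summed nuclear level ran from 0.851 to 2.66, above 1 in 5 of 7 embryos, and that of the mt- genes from 0.449 to 2.33, above 1 in 2 of 7.

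The directions of disomy were compared between the red and green cells of an embryo. No member was called at E13 (edgeR, 0% of 11786 genes, and 2.24% at an unadjusted p under 0.05). At E16 none was called either (0.0278% of 10794 genes, and 2.31% at an unadjusted p under 0.05). In simulated data the E13 fit called 5% of genes changed by 2 on the log2 scale and 12% of those changed by 3. The changed genes were drawn from all genes tested, so these shares are not those of the members. A missing call in this fit does not show a lack of change. At an unadjusted p under 0.05 stood Uqcrc2 and Atp5l at E13 and no nuclear member at E16. By the DESeq2 Wald test Atp5l, a low member with a level of 1.93 CPM per kb, was called at E13 and no member at E16. The median change, paternal over maternal, was 0.06 at E13 and -0.08 at E16, against -0.05 and 0.09 for all genes. The ratio of summed nuclear levels was 0.986 to 1.15 over 5 embryos at E13 and 0.570 to 1.47 over 7 embryos at E16. No member was called at either age without the libraries that stood apart (0.00856% and 0.0282% of all genes), and 1 nuclear member at E13 and 4 at E16 had an unadjusted p under 0.05, against 3.29% and 3.98% of all genes.

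Of the nuclear members 9 lie on chromosome 7, whose copies come from 1 parent in these cells, and 5 of them were tested at both ages. Uqcrc2 (chromosome 7, 120635176 to 120659524), a core protein of complex III, differed by 0.88 (SE 0.40, unadjusted p = 0.0488, edgeR adjusted p = 1) at E13 and by 0.43 (SE 0.68) at E16, paternal over maternal. In E13 embryo 4, whose green library stood apart, Uqcrc2 had 826 CPM in paternal and 201 CPM in maternal cells. In the other E13 embryos with all 3 colours kept, the values were 319 and 216 CPM (embryo 1), 346 and 421 CPM (embryo 2) and 376 and 271 CPM (embryo 6). Cox6b1 differed by 0.17 (SE 0.36) and -0.26 (SE 0.28), and Ndufa3 by 0.38 (SE 0.35) and -0.25 (SE 0.33). Ndufc2 differed by -0.30 (SE 0.46) and -0.16 (SE 0.44), and Ndufab1 by 0.32 (SE 0.81) and -0.04 (SE 0.56). Apart from Uqcrc2 and Ndufa3 at E13, each of these differences was smaller than its SE. Cox6b2 was tested at E13 only (2.47, SE 2.73), and Cox6a2, Cox7a1 and Cox8b were too low to test. The change of the disomy contrast with age called none of 11472 genes (edgeR, 2.54% at an unadjusted p under 0.05; 105 higher and 72 lower by the DESeq2 Wald test, with no member), and no nuclear member had an unadjusted p under 0.05 in it. There were 4 such members without the libraries that stood apart, against 3.97% of all genes.

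**Figure D5:**
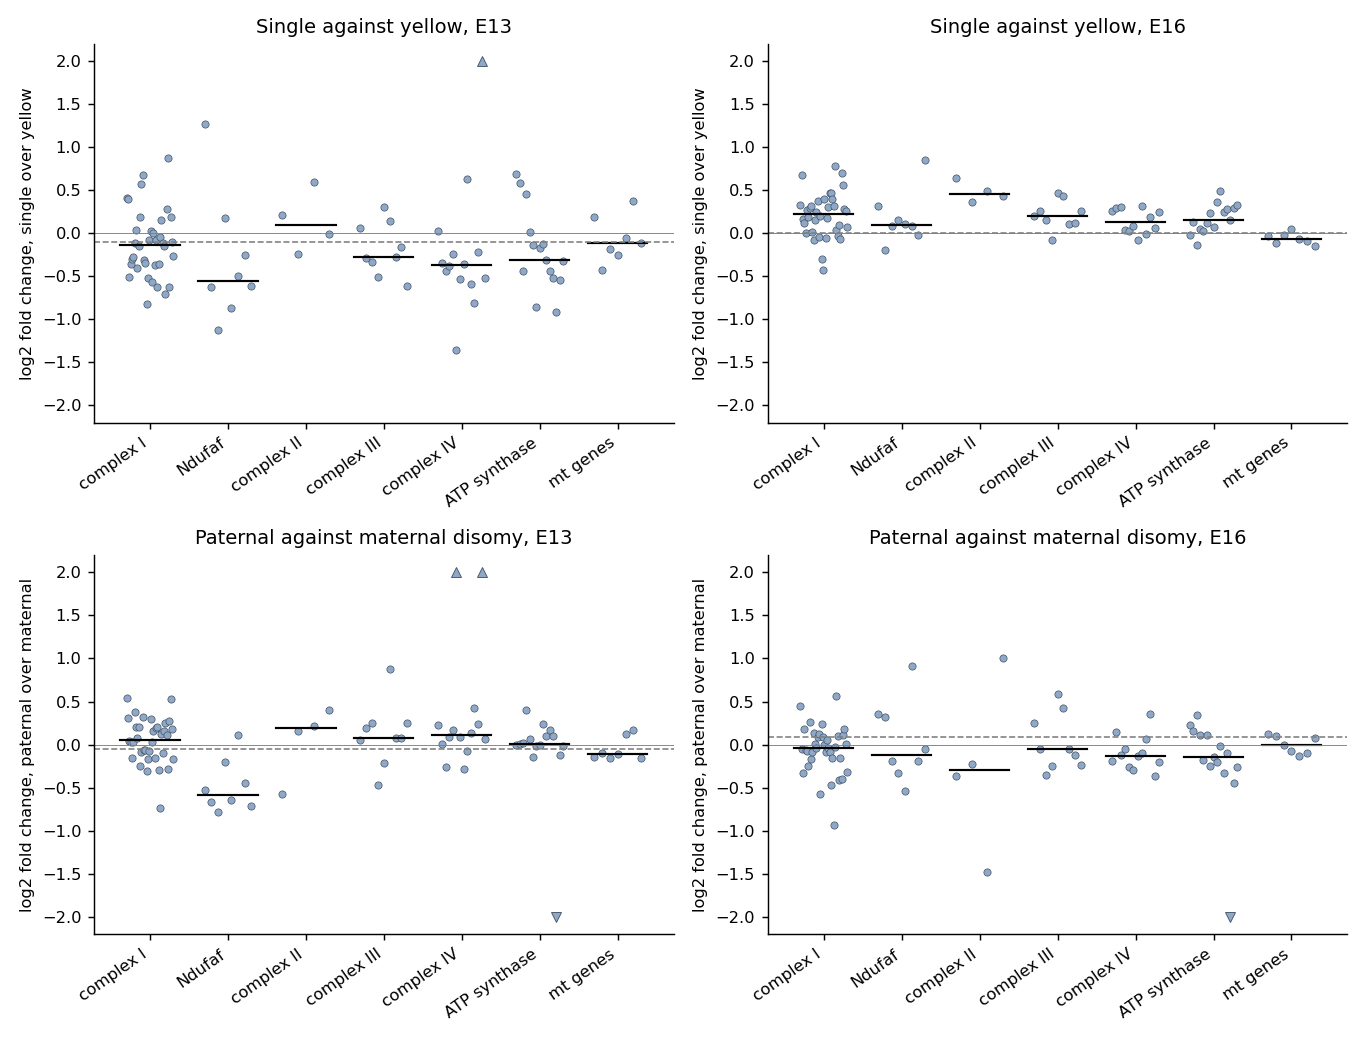
Log2 change of each gene tested, by complex, for singly coloured over yellow cells (top) and paternal over maternal disomy (bottom) at E13 and E16; black bars are medians, the dashed line is the median of all genes, triangles lie beyond the axis and Atp5s is not drawn. No gene shown was called, and the nuclear medians are -0.26 and 0.18 in the upper panels and 0.06 and -0.08 in the lower ones.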

How the data were processed

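Each pool of sorted cells gave a Smart-Seq2 library of poly(A) RNA. The authors deposited a table of read counts per gene for each library, made with STAR 2.5.0c on GRCm38 with the Gencode M16 annotation, keeping reads with a single alignment and combining technical replicates; SAMtools 1.8 and bedtools 2.26.0 are also named in the submitters' processing notes. The column of unstranded counts was used. Gene names, positions and transcript sequences came from Gencode M21 of the same build, in which 53274 of the 53379 gene identifiers were found.

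Libraries with under 40% uniquely aligned reads were left out. Groups came from the colour and age in the labels, and the direction of disomy from the replicate number, as described with the samples. Counts were scaled by TMM and tested with the quasi-likelihood test of edgeR 4.0.16 (R 4.3.3) at a Benjamini-Hochberg adjusted p of 0.05, over all genes with a mean count of 10 or more in the comparison. Ages were compared over counts summed per embryo. Colours and disomy directions were compared over libraries with the embryo as a block. The paper states that replicates were single individuals, and equal numbers within an age were taken as 1 embryo. The mean correlation of deviations between libraries with the same number was 0.0439 at E13 and 0.0294 at E16. For other pairs it was -0.00919 and -0.00357. Libraries with the same number could differ in Xist, as in E13 replicate 2 with 0 counts in red, 0 in green and 1164 in yellow cells. Whether a change differed between colours or disomy directions was tested as an interaction. Intervals cover counting error only.

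The members and gene lists were chosen with earlier results of these data known. Named genes were a fixed set of core subunits (Ndufv1, Ndufs1, Sdha, Uqcrfs1, Cox4i1, Atp5b, mt-Nd1, mt-Cytb, mt-Co1, mt-Atp6), every member called in a comparison, and by level the members with alternative forms, those on chromosome 7 and the highest and lowest of each complex. Others (mt-Nd5, the uncalled members near the threshold, mt-Cytb and Atp5b between colours) were chosen after their values were seen. The values of some genes are not reported here. Alternatives were other library choices, DESeq2 1.42.0 size factors and Wald test, limma 3.58.1 on log2 CPM, no count filter and library sizes without chromosome M. Others were the replicate set (replicates 1 to 3 against 4 on) as a term, no embryo block and leaving out each embryo. The fits were tested on simulated data with 200 genes changed by 2 or 3 on the log2 scale. These were drawn at random from all genes tested, so the shares called are not those of the members. For the comparison of ages over 13776 genes, 29% of those changed by 2 and 50% of those changed by 3 were called. There were 3 false calls. These shares were 8% and 25% for yellow cells over 11378 genes. They were 13% and 27% for singly coloured against yellow cells at E16 (10794 genes). For the disomy directions at E13 (11786 genes) they were 5% and 12%.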

Additional observations from a re-analysis of the deposited data

Results flagged for a closer look

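In E13 red replicate 6 the summed level of the mt- genes was 0.881 times that of the nuclear members, while the other 4 E13 red libraries lay between 1.00 and 1.04, so this library stood apart from its group by Dixon's criterion. It was the only one among 18 group and measure pairs examined, and chance alone sets apart about 1 in 20.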

How the results depend on the processing

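Over 66 results and 1163 alternatives, 953 were counted as unchanged and 106 counts or medians moved. Among named genes, 74 calls were lost, 10 were gained and 20 values changed sign. A count or median was taken as unchanged when its shift was small, whatever its sign. The nuclear median between the ages in yellow cells, at -0.30 to 0.06 over embryos left out, was thus counted as unchanged. With all colours together, the main count of 1 nuclear member called between the ages became 0 without the count filter, 2 by the DESeq2 Wald test and 0 without the libraries that stood apart, and ran from 0 to 3 when embryos were left out in turn, with 3 without E13 embryo 5. Over embryos with all 3 colours and by limma it stayed 1, but the gene was Atp5b: Cox6b2 was lost in both (limma -1.49, adjusted p = 0.136) and in 10 of 13 fits without 1 embryo. The 1 mt- gene called became 0 over embryos with all 3 colours.

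In singly coloured cells the 7 nuclear members called became 4 without the filter, 15 by the DESeq2 Wald test, 0 with all libraries kept, 3 with the libraries the study used and 1 without those that stood apart, and 2 to 8 when embryos were left out in turn. The mt- count of 0 became 1 by the DESeq2 Wald test. In yellow cells the mt- count of 0 between ages became 1 with the study's libraries and 1 without those that stood apart, as did that of singly coloured against yellow cells at E13, which was 0 to 1 over embryos left out (1 without embryo 2). The disomy comparison at E13 went from 0 nuclear members to 1 by the DESeq2 Wald test.

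Sign changes of named genes between the ages were those of Ndufv1 (-0.017, all libraries), Ndufs1 (-0.12 without the libraries that stood apart, and -0.021 to 0.57 over embryos left out), Sdha (-0.10, limma) and Cox4i1 (-0.039, limma). The near-zero change of mt-Nd1 was -0.029 with DESeq2 size factors, -0.029 by the DESeq2 Wald test, -0.018 with library sizes without chromosome M, -0.31 with all libraries, -0.015 with the replicate set as a covariate, -0.12 by limma and -0.13 to 0.15 over embryos left out. For mt-Cytb in singly coloured against yellow E13 cells it was 0.25 with all libraries. The cause was not tested in any of these.

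Atp5b in singly coloured cells lost its call only with all libraries kept, and mt-Nd6 with all colours only over embryos with all 3 colours. Without the embryo block no member was called in any comparison of colours or disomy directions, so the pairing changed no call of a member, and the nuclear median of singly coloured against yellow E13 cells was -0.34; of all genes 9 were called in place of 1. Embryos were not left out in turn for the interactions. Counts of few reads, as for Cox6b2 and Cox8c, limit what can be read, and the 5 mt- genes with a near-identical copy cannot be read from uniquely aligned reads.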
